A study of Mus musculus with 9 samples.

Results

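The genes of antigen presentation by the major histocompatibility complex (MHC) were followed in E14 cells, a line of mouse embryonic stem cells, grown in 3 media. They were chosen by symbol, as every gene whose name begins with H2-, the mouse name of the complex, together with 13 genes that assemble, load or control its molecules. The table of 24819 genes holds 57 such members. They are 33 class I genes (3 classical and 30 non-classical), 10 class II genes, 10 genes of peptide processing and loading, 3 regulators with the invariant chain, and H2-Ke6, which carries the prefix but encodes a steroid dehydrogenase. The choice was made with differences between the media already known, so every count of members that differ is a description.

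Class I molecules display peptides from inside the cell to CD8+ T cells. Their heavy chain folds with beta-2 microglobulin, and their peptides are cut by the proteasome, pumped into the endoplasmic reticulum by the transporter TAP and loaded with the help of tapasin. Class II molecules display peptides taken up from outside to CD4+ T cells, and are otherwise known from B cells, dendritic cells and other professional antigen presenting cells. The invariant chain Cd74 guides them to the compartment where H2-DM exchanges their peptide. Nlrc5 and Ciita are the transactivators of the class I and class II genes, and both act through promoter sequences called the X and Y boxes. Embryonic stem cells are known for low surface levels of MHC molecules.

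EPSCM is expanded potential stem cell medium, which is meant to let stem cells contribute to more lineages. The 2iLIF cultures were grown in serum-free N2B27 with leukemia inhibitory factor (LIF) and an inhibitor pair known as 2i, which blocks MEK and GSK3. The ES cultures were grown in serum medium with LIF. All were E14 cells on gelatin, described as stable in their medium. Beyond the media, which can themselves hold inhibitors such as 2i, the labels give no genotype difference or drug treatment for these groups. The components of EPSCM are not listed here. Each medium had 3 libraries of polyadenylated RNA, and the labels do not say whether these came from separate cultures, so p-values measure only the spread between libraries, which may be technical.

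Values are FPKM, fragments scaled to transcript length and library size, as deposited. Library sums ranged from 546636 to 600728 FPKM. The table holds no counts, so the depth is unknown. Steps between its lowest values put 1 fragment in a transcript of 1 kb at roughly 0.0400 to 0.0588 FPKM, so values around 0.1 FPKM rest on very few fragments. One library of each medium stood apart from the other 2 on the third principal component, which held 6.46% of the variance. These were EPSCM replicate 2, 2iLIF replicate 1 and ES replicate 1, whose titles carry the numbers 19, 18 and 16, the highest of their media. Correlation of log2(FPKM + 1) with the close libraries of the same medium was 0.9855 to 0.9902 for these 3, and 0.9959 to 0.9967 between the close libraries. All 8 embryonic stem cell markers examined averaged at least 1 FPKM in each medium, and 3 of them (Utf1, Zfp42 and Pou5f1) were called lower in EPSCM against ES, at -4.19, -1.70 and -1.11 on the log2(FPKM + 1) scale.

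Promoter sequences are shown for 5 genes, picked with their levels known, because class I and class II promoters are known for a shared set of short motifs. The windows come from RefSeq on GRCm38.p6, run from 250 bases before to 50 after the annotated start, and read 5′ to 3′ on the strand of the gene. Capitals mark matches on either strand to TGACG (the core of the X2 box), ATTGG (the Y box), AANNGAAAC (an interferon-stimulated response element) and GGGATTCCC (the NF-kappaB site known from class I promoters), and to the other spellings given below. H2-K1 and H2-Q7 are a classical and a non-classical class I gene, B2m is the light chain, H2-Aa is a class II gene, and H2-M5 is the class I gene that was lower in EPSCM.
H2-K1 promoter, chr17:34000298-34000597, minus strand: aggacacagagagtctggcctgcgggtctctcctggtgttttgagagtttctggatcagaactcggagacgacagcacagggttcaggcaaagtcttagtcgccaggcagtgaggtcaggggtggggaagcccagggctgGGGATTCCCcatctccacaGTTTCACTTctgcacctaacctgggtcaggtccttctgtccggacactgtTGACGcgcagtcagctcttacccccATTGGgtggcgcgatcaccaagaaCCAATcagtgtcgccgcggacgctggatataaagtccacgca
H2-Q7 promoter, chr17:35438905-35439204, plus strand: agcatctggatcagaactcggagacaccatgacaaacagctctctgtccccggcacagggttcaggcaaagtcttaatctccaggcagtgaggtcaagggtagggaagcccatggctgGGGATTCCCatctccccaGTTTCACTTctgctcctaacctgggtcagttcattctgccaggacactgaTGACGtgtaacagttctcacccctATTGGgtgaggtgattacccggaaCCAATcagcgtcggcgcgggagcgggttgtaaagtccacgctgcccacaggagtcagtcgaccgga
B2m promoter, chr2:122147437-122147736, plus strand: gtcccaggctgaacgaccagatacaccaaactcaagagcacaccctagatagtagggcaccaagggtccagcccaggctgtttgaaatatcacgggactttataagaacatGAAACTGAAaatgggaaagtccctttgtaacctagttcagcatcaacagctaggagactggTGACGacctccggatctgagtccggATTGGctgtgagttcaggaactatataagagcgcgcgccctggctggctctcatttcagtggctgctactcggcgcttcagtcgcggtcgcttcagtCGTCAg
H2-Aa promoter, chr17:34287774-34288073, minus strand: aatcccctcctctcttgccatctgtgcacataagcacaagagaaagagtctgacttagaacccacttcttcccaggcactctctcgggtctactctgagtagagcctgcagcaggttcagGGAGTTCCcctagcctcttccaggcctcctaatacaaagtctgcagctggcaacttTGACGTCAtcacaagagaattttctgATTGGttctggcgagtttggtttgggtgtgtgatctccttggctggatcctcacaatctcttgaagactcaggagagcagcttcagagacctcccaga
H2-M5 promoter, chr17:36989484-36989783, minus strand: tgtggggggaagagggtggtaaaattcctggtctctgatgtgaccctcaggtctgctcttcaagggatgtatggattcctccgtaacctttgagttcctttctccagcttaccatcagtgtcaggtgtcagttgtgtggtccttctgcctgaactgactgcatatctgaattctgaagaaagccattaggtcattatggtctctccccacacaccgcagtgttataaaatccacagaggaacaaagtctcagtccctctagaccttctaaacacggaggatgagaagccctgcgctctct

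In the H2-K1 window the NF-kappaB match began at base 141, the interferon element at 160, the X2 core at 210 and Y boxes at 235 and 259. H2-Q7 held the same 5 matches in the same order, at 119, 137, 187, 211 and 235. B2m had an interferon element in the first spelling at 112, X2 cores at 173 and 295 and a Y box at 198. H2-Aa had an NF-kappaB match in the first spelling at 121, overlapping X2 cores at 177 and 180 and a Y box at 203. Among class II genes with a window, it was the only one with the X2 core letters. The windows of H2-Oa, H2-DMa, H2-DMb1, H2-DMb2, H2-Ob, H2-Eb1 and H2-Eb2 held none, so H2-Aa is not typical of them. H2-Ab1, the class II gene with the highest level in EPSCM, had no window and was not searched. The H2-M5 window held no match to any of the letters searched. A match is only a match of letters.

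Of the 57 members, 41 had a window, 45 windows in all, set here against 32851 windows of all genes. The Y box letters were in 35 of 45 member windows (77.8%) and 37.4% of all windows, and the X2 core was in 18 (40.0%) and 20.8%. The gamma-activated site TTCNNNGAA was in 4 (8.89%) and 8.30%. For the interferon element the first letters searched were GAAANNGAA, found in 5 member windows (11.1%) and 8.56% of all. For the NF-kappaB site they were GGANTTCC, found in 4 (8.89%) and 4.77%. Those counts had been seen when both were respelled, because the first letters missed the sites that H2-K1 is known for. The second spelling of the interferon element was in 15 member windows (33.3%) and 5.77% of all, and that of the NF-kappaB site in 5 (11.1%) and 0.353%. The larger contrast of the second spellings is therefore not independent of the counts. Class I genes are copies of one another, so their windows are not separate observations, and no test was made.

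Most members were low. Of the 57, 10 were listed at 0 in every library, 26 averaged at least 1 FPKM in at least 1 medium, and 11 reached 1 FPKM in all 9 libraries. The 26 were also the members that passed the filter for testing, at least 1 FPKM in at least 3 libraries. H2-Q2, H2-M3, H2-Oa and Tap2 reached 1 FPKM in no library outside EPSCM and so passed through the medium in which they were high. H2-DMb1, H2-Q7 and H2-K2 reached it in fewer than 3 libraries outside EPSCM, so they too passed only with EPSCM. The 31 members below the limit peaked at 1.27 FPKM, for H2-Q9 in 1 EPSCM library.

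**Figure D1:**
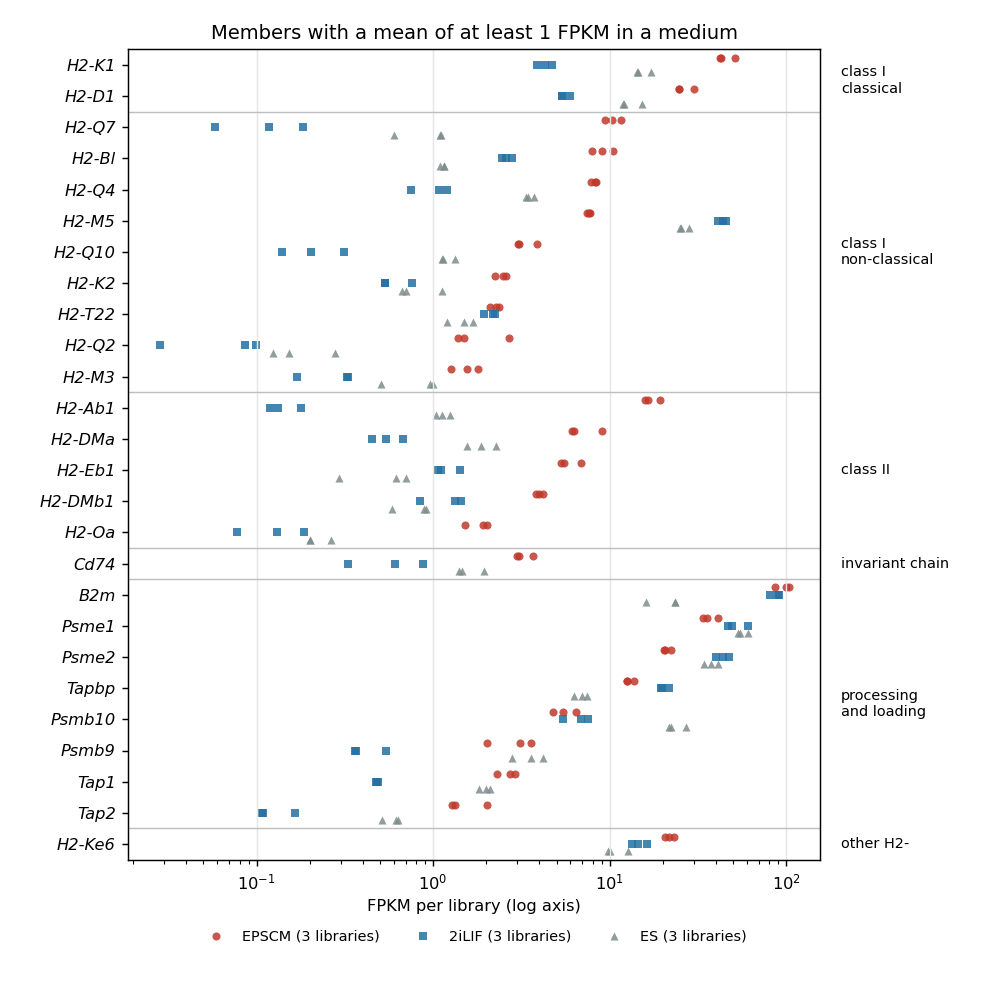
FPKM per library on a log axis for the 26 members averaging 1 FPKM or more in a medium, grouped by role (each symbol is 1 library; 3 libraries per medium). Most class I and all shown class II genes lie furthest right in EPSCM, while H2-M5, Psme1, Psme2 and Psmb10 do not.

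The classical class I genes H2-K1 and H2-D1 encode the main heavy chains seen by CD8+ T cells. H2-K1 was at 42.9, 51.0 and 42.4 FPKM in EPSCM, 4.73, 4.29 and 3.89 FPKM in 2iLIF and 17.2, 14.4 and 14.5 FPKM in ES. H2-D1 was at 24.7, 29.9 and 24.8 FPKM in EPSCM, 5.93, 5.39 and 5.36 FPKM in 2iLIF and 15.3, 12.1 and 11.9 FPKM in ES. For both genes the 3 media did not overlap, with EPSCM highest and 2iLIF lowest. H2-K1 differed between EPSCM and ES by 1.51 ± 0.10 (SE), adjusted p = 1.37e-06 (limma on log2(FPKM + 1), Benjamini-Hochberg over all tested genes, as in every adjusted p here). Against 2iLIF the H2-K1 difference was 3.13 ± 0.10 (SE), adjusted p = 2.38e-08. A gene was called when its adjusted p was under 0.05 and its difference at least 1 on that scale. H2-D1 was called against 2iLIF, at 2.06 ± 0.11 (SE), adjusted p = 3.5e-07, and stood just under the limit against ES, at 0.96 ± 0.11 (SE), adjusted p = 4.04e-05. It passed the limit, at 1.01 to 1.07, when EPSCM replicate 1, EPSCM replicate 3 or ES replicate 1 was left out. Both genes were called lower in 2iLIF against ES, H2-K1 at -1.62 and H2-D1 at -1.10, the second at -0.99 without ES replicate 1 and then not called. The ratio of H2-K1 over H2-D1 was 1.74, 1.70 and 1.71 in EPSCM, 0.798, 0.797 and 0.725 in 2iLIF and 1.12, 1.18 and 1.21 in ES. H2-L, the third classical symbol, did not exceed 0.146 FPKM.

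Among non-classical class I genes, H2-Q7, a source of the Qa-2 antigen, had the largest differences in both EPSCM comparisons. It was at 10.3, 11.7 and 9.45 FPKM in EPSCM, 0.0583, 0.118 and 0.183 FPKM in 2iLIF and 1.10, 1.11 and 0.5998 FPKM in ES. The difference was 2.58 ± 0.12 (SE), adjusted p = 1.61e-07, between EPSCM and ES and 3.35 ± 0.12 (SE), adjusted p = 3.72e-08, between EPSCM and 2iLIF. Its near copies were split unevenly between libraries: H2-Q6 was at 0.625 FPKM in EPSCM replicate 1 and close to 0 in the other EPSCM libraries, and H2-Q8 was close to 0 in replicate 1 and at 0.805 and 0.5696 FPKM in the others. Single values of these copies are uncertain. Summed over H2-Q6 to H2-Q9, Qa-2 RNA was 12.1 ± 1.12 FPKM in EPSCM, 0.120 ± 0.0621 FPKM in 2iLIF and 1.23 ± 0.1999 FPKM in ES (SD, n = 3 each). Of the longest H2-Q7 transcript, 19.1% of stretches of 75 bases were also found in other genes, and 10.1% in H2-Q10. The transcripts searched held none under the names H2-Q8 or H2-Q9, so sharing with these symbols is not counted in those shares.

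H2-Bl, named for the blastocyst, was at 7.99, 10.4 and 9.003 FPKM in EPSCM, 2.81, 2.60 and 2.44 FPKM in 2iLIF and 1.10, 1.15 and 1.15 FPKM in ES. For H2-Bl 2iLIF lay above ES, unlike H2-K1. RefSeq lists H2-Bl, and H2-K2 below, as transcribed pseudogenes. H2-Q4 was at 7.89, 8.29 and 8.32 FPKM in EPSCM, 1.19, 1.09 and 0.748 FPKM in 2iLIF and 3.46, 3.75 and 3.35 FPKM in ES. H2-Q10, known as a secreted class I molecule of liver, was at 3.05, 3.85 and 3.04 FPKM in EPSCM, 0.139, 0.202 and 0.314 FPKM in 2iLIF and 1.33, 1.13 and 1.14 FPKM in ES. Both followed the order of H2-K1, EPSCM above ES above 2iLIF, with no overlap. H2-Q4 was called against ES at 1.02 ± 0.09 (SE), adjusted p = 6.74e-06, a difference of 0.92 under median of ratios scaling and 0.84 under quantile normalization, both short of the limit, as was 0.99 without ES replicate 3. It was called lower in 2iLIF against ES at -1.18. H2-Q10 was called against 2iLIF at 1.82 and not against ES at 0.97, which became 1.01 without EPSCM replicate 1, EPSCM replicate 3 or ES replicate 1.

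H2-Q2 was at 1.499, 2.70 and 1.39 FPKM in EPSCM, 0.0861, 0.0283 and 0.0995 FPKM in 2iLIF and 0.152, 0.124 and 0.278 FPKM in ES. H2-K2 was at 2.24, 2.48 and 2.60 FPKM in EPSCM, 0.537, 0.762 and 0.534 FPKM in 2iLIF and 1.12, 0.699 and 0.665 FPKM in ES. H2-M3, which presents formylated peptides, was at 1.56, 1.79 and 1.26 FPKM in EPSCM, 0.170, 0.331 and 0.323 FPKM in 2iLIF and 0.998, 0.965 and 0.507 FPKM in ES. EPSCM lay above the other media for all 3, and 2iLIF and ES overlapped for H2-K2 only. H2-Q2 was called against ES at 1.25 and against 2iLIF at 1.39. H2-K2 was called only against 2iLIF, at 1.10, and at 0.77 under quantile normalization it was not. Without ES replicate 1 it passed the limit against ES too, at 1.031. H2-M3 was called in no comparison, with 0.48 against ES and 0.99 against 2iLIF, and passed the limit against 2iLIF at 1.07 without EPSCM replicate 3 and at 1.017 to 1.021 without 2iLIF replicate 2 or 3. With a pseudocount of 0.1 FPKM in place of 1, H2-M3 was called at 2.14 in EPSCM against 2iLIF and at -1.28 in 2iLIF against ES. H2-T22, a ligand of gamma delta T cells, was at 2.35, 2.27 and 2.10 FPKM in EPSCM, 1.94, 2.25 and 2.18 FPKM in 2iLIF and 1.503, 1.19 and 1.69 FPKM in ES, and was not called in any comparison. EPSCM and 2iLIF overlapped for it.

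H2-M5 went the other way. It was at 7.63, 7.78 and 7.48 FPKM in EPSCM, 45.9, 43.7 and 41.2 FPKM in 2iLIF and 28.1, 25.4 and 25.0 FPKM in ES. The media did not overlap, and EPSCM was lowest. H2-M5 fell in EPSCM by 1.65 on the log2(FPKM + 1) scale against ES, adjusted p = 6.5e-08, and by 2.37 against 2iLIF, adjusted p = 1.05e-08. It stood above ES in 2iLIF by 0.72, short of the limit. In gene order it lies beside Zfp57, a zinc finger gene that protects imprints, which is separated from it by 11625 bases in GENCODE M21 and was at 70.1, 62.8 and 69.8 FPKM in EPSCM, 317, 322 and 321 FPKM in 2iLIF and 293, 299 and 295 FPKM in ES. On its other side 2410137M14Rik was at 3.81, 4.37 and 3.89 FPKM in EPSCM, 29.6, 26.6 and 30.2 FPKM in 2iLIF and 5.38, 4.38 and 5.58 FPKM in ES. Both neighbours averaged lower in EPSCM than in 2iLIF. The next gene beyond 2410137M14Rik, Znrd1as, averaged 14.03 FPKM in EPSCM, 6.31 FPKM in 2iLIF and 19.96 FPKM in ES, and so was above 2iLIF in EPSCM. The next gene beyond Zfp57, Mog, averaged 0.652 FPKM in EPSCM, 0.821 FPKM in 2iLIF and 0.320 FPKM in ES. Of the H2-M5 stretches of 75 bases, 0% occurred in another gene.

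Because H2-M5 alone held much of the class I total in 2iLIF, sums were taken with and without it, a split chosen after its values were seen. All class I genes together gave 121 ± 11.8 FPKM in EPSCM, 60.7 ± 3.13 FPKM in 2iLIF and 65.4 ± 5.86 FPKM in ES (SD, n = 3 each). Entered in the fit as 1 gene, that sum differed by 0.88 between EPSCM and ES, by 0.98 between EPSCM and 2iLIF and by -0.10 between 2iLIF and ES, none of them called. Without H2-M5 the sums were 114 ± 11.7 FPKM in EPSCM, 17.1 ± 0.821 FPKM in 2iLIF and 39.2 ± 4.16 FPKM in ES. The classical genes summed to 72.0 ± 7.85 FPKM in EPSCM, 9.86 ± 0.727 FPKM in 2iLIF and 28.5 ± 3.46 FPKM in ES. In each medium the library that stood apart (EPSCM replicate 2, 2iLIF replicate 1 and ES replicate 1) gave the highest class I sum, at 135 FPKM in EPSCM, 63.7 FPKM in 2iLIF and 72.1 FPKM in ES, and the highest class II sum, at 41.8 FPKM in EPSCM, 3.84 FPKM in 2iLIF and 5.33 FPKM in ES. With only the 6 close libraries the class I sums were 114.5 FPKM in EPSCM, 59.2 FPKM in 2iLIF and 62.0 FPKM in ES.

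**Figure D2:**
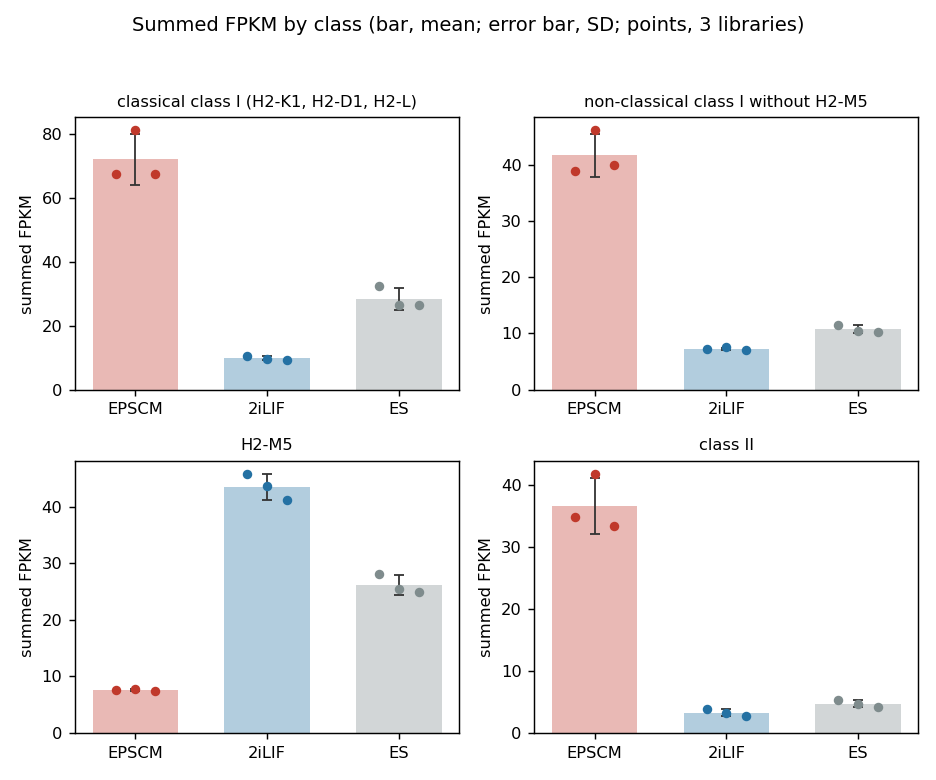
Summed FPKM per library of 4 gene groups (bars, mean; error bars, SD; points, 3 libraries per medium). Classical class I, non-classical class I without H2-M5 and class II sums are highest in EPSCM, while H2-M5 is lowest there at 7.48 to 7.78 FPKM.

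The tested class II genes were low in 2iLIF and ES and higher in EPSCM, and their chains were uneven. H2-Ab1, the I-A beta chain, was at 16.4, 19.2 and 15.8 FPKM in EPSCM, 0.179, 0.119 and 0.132 FPKM in 2iLIF and 1.25, 1.04 and 1.12 FPKM in ES. H2-Eb1, the I-E beta chain, was at 5.50, 6.89 and 5.31 FPKM in EPSCM, 1.43, 1.06 and 1.11 FPKM in 2iLIF and 0.614, 0.706 and 0.294 FPKM in ES. In both genes every EPSCM library was above every other. The H2-Ab1 difference was 3.08 ± 0.08 (SE), adjusted p = 9.73e-09, between EPSCM and ES and 3.98 ± 0.08 (SE), adjusted p = 2.89e-09, between EPSCM and 2iLIF. For H2-Eb1 it was 2.17 against ES and 1.65 against 2iLIF. H2-Aa, the alpha chain that pairs with H2-Ab1, was only at 0.474, 0.627 and 0.624 FPKM in EPSCM, 0.0443, 0.0396 and 0 FPKM in 2iLIF and 0.0876, 0.0711 and 0.0827 FPKM in ES and was too low to be tested. H2-Ea-ps, under which the I-E alpha gene is listed, was at 0 throughout.

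H2-DMa and H2-DMb1 form H2-DM, the editor of class II peptides. H2-DMa was at 6.30, 9.07 and 6.15 FPKM in EPSCM, 0.674, 0.451 and 0.541 FPKM in 2iLIF and 2.27, 1.88 and 1.56 FPKM in ES. H2-DMb1 was at 4.17, 3.99 and 3.80 FPKM in EPSCM, 1.44, 1.33 and 0.847 FPKM in 2iLIF and 0.913, 0.585 and 0.886 FPKM in ES. Both were above the other media in every EPSCM library. H2-DMa differed by 1.48 against ES and 2.38 against 2iLIF, and H2-DMb1 by 1.48 against ES and 1.19 against 2iLIF, the last at 0.95 under quantile normalization and then not called. H2-DMa shares 10.4% of its exon bases with the opposite strand of Brd2, which averaged 76.8 FPKM in EPSCM, 108 FPKM in 2iLIF and 91.4 FPKM in ES, and whether strand was used in counting is not given. H2-Oa, a chain of H2-O, which restrains H2-DM, was at 1.92, 2.02 and 1.52 FPKM in EPSCM, 0.0778, 0.187 and 0.131 FPKM in 2iLIF and 0.201, 0.264 and 0.201 FPKM in ES and was called higher in EPSCM against ES at 1.20 and 2iLIF at 1.31. Its partner H2-Ob was listed at 0 in every library.

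Cd74, the invariant chain, was at 2.97, 3.66 and 3.08 FPKM in EPSCM, 0.871, 0.329 and 0.609 FPKM in 2iLIF and 1.93, 1.46 and 1.40 FPKM in ES. The media did not overlap. It was called in EPSCM against 2iLIF, at 1.41, and not against ES, at 0.71. The transactivator of class II, Ciita, was at 0.338, 0.289 and 0.389 FPKM in EPSCM, 0.166, 0.0998 and 0.172 FPKM in 2iLIF and 0.00632, 0.0209 and 0.0248 FPKM in ES. Although the media did not overlap for Ciita, all values were under 0.4 FPKM and it was not tested. Nlrc5, the class I transactivator, did not exceed 0.161 FPKM in any library. Summed over class II, RNA was 36.6 ± 4.53 FPKM in EPSCM, 3.26 ± 0.547 FPKM in 2iLIF and 4.69 ± 0.591 FPKM in ES (SD, n = 3 each).

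Genes of peptide processing and loading differed among themselves. B2m, the light chain of every class I molecule, was at 100, 86.6 and 103 FPKM in EPSCM, 81.3, 89.8 and 90.9 FPKM in 2iLIF and 16.1, 23.5 and 23.4 FPKM in ES. EPSCM and 2iLIF overlapped and ES was below both. B2m differed by 2.17 ± 0.14 (SE), adjusted p = 1.04e-06, between EPSCM and ES, by 0.14 ± 0.14 (SE), adjusted p = 0.384, between EPSCM and 2iLIF, and by 2.02 ± 0.14 (SE), adjusted p = 2.06e-06, between 2iLIF and ES. B2m over the sum of H2-K1 and H2-D1 was 1.36 ± 0.255 in EPSCM, 8.91 ± 1.15 in 2iLIF and 0.756 ± 0.225 in ES (SD, n = 3 each). In 2iLIF the B2m values overlapped those of EPSCM, while the classical heavy chains were at their lowest. B2m lies within a stretch shared with Patl2 on the opposite strand, with 0% of exon bases in common.

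Tap1 and Tap2, the paired subunits of the peptide transporter, had the same order of media as H2-K1. Tap1 was at 2.73, 2.93 and 2.31 FPKM in EPSCM, 0.476, 0.482 and 0.486 FPKM in 2iLIF and 2.09, 1.82 and 2.00 FPKM in ES. Tap2 was at 1.28, 2.02 and 1.33 FPKM in EPSCM, 0.109, 0.107 and 0.166 FPKM in 2iLIF and 0.631, 0.510 and 0.613 FPKM in ES. In both genes the media did not overlap, EPSCM was highest and 2iLIF lowest. Tap1 was called against 2iLIF at 1.30 and not against ES at 0.30, and Tap2 likewise at 1.16 and 0.67. With a pseudocount of 0.1 FPKM, Tap2 was called in EPSCM against ES too, at 1.24, and in 2iLIF against ES, at -1.596. Under quantile normalization both fell short of the limit against 2iLIF, Tap1 at 0.96 and Tap2 at 0.89. Between 2iLIF and ES, Tap1 was called lower at -1.002, just past the limit, and lost the call when 2iLIF replicate 1 (-0.9999), ES replicate 1 (-0.97) or ES replicate 3 (-0.99) was left out. Tapbp, the gene of tapasin, was at 12.6, 13.7 and 12.5 FPKM in EPSCM, 21.6, 19.5 and 19.9 FPKM in 2iLIF and 7.44, 6.31 and 7.02 FPKM in ES. It was highest in 2iLIF, at 1.43 against ES, and its EPSCM level stood between the other media without overlap.

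Psmb8, Psmb9 and Psmb10 encode the catalytic subunits that replace Psmb5, Psmb6 and Psmb7 in the immunoproteasome. Psmb9 was at 2.03, 3.59 and 3.11 FPKM in EPSCM, 0.538, 0.361 and 0.364 FPKM in 2iLIF and 3.60, 2.78 and 4.17 FPKM in ES. EPSCM overlapped ES for it, and 2iLIF was below both. Psmb10 was at 4.79, 6.43 and 5.46 FPKM in EPSCM, 7.52, 5.44 and 6.89 FPKM in 2iLIF and 27.1, 21.8 and 22.3 FPKM in ES. It was called lower against ES in EPSCM, at -1.92 ± 0.13 (SE), adjusted p = 1.82e-06, and in 2iLIF, at -1.70 ± 0.13 (SE), adjusted p = 5.1e-06. Psmb8 was listed at 0 in every EPSCM library and did not exceed 0.0858 FPKM elsewhere. As a share of the constitutive counterpart, Psmb10 was 2.57 ± 0.729% of Psmb7 in EPSCM, 2.48 ± 0.568% in 2iLIF and 7.40 ± 1.67% in ES. Psmb9 was 1.16 ± 0.229% of Psmb6 in EPSCM, 0.147 ± 0.0150% in 2iLIF and 0.977 ± 0.2404% in ES (SD, n = 3 each). Psmb9 and Tap1 are transcribed head to head and overlap by 212 bases in GENCODE M21.

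**Figure D3:**
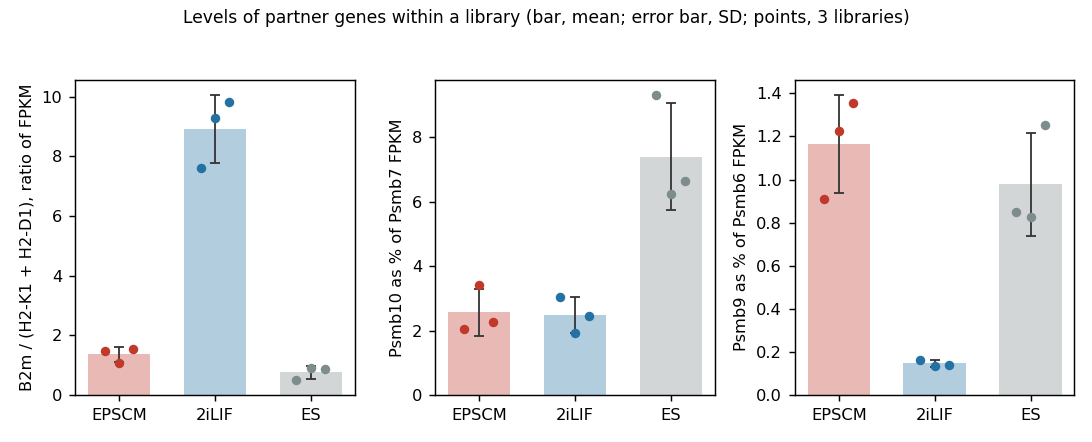
Ratio of B2m to the classical heavy chains, and Psmb10 and Psmb9 as a percentage of the constitutive subunits they replace (bars, mean; error bars, SD; points, 3 libraries per medium). The B2m ratio is highest in 2iLIF at 7.62 to 9.83, Psmb10 is highest in ES, and Psmb9 is lowest in 2iLIF.

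The proteasome activator PA28 is formed by Psme1 and Psme2. Psme1 was at 35.4, 41.1 and 33.9 FPKM in EPSCM, 61.1, 49.5 and 46.6 FPKM in 2iLIF and 60.5, 53.1 and 54.6 FPKM in ES. Psme2 was at 20.5, 22.4 and 20.4 FPKM in EPSCM, 47.3, 40.2 and 43.8 FPKM in 2iLIF and 40.9, 34.2 and 37.6 FPKM in ES. Both were below the other media in every EPSCM library. Psme2 was called lower against 2iLIF at -1.02 and not against ES at -0.80, and Psme1 was not called, with -0.49 against 2iLIF and -0.60 against ES. Leaving out EPSCM replicate 1 or 3 or 2iLIF replicate 1 put Psme2 under the limit, at -0.998, -0.99 and -0.96. Of the Psme2 transcript, 51.7% of stretches were shared with the copy Psme2b. Erap1, which trims peptides, did not exceed 0.640 FPKM. H2-Ke6, the steroid dehydrogenase, was at 21.7, 23.2 and 20.6 FPKM in EPSCM, 16.2, 13.4 and 14.5 FPKM in 2iLIF and 12.7, 9.82 and 10.001 FPKM in ES, and 94.2% of its stretches were shared with the readthrough model Gm20427. It was not called, and stood at 0.96 in EPSCM against ES, or 1.06 without ES replicate 1.

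Set against all tested genes, the members were called as follows. In EPSCM against ES, 11 of 26 were higher and 2 lower, while 11.7% of all 12330 tested genes were higher and 7.97% lower. The members' median difference was 0.96, and that of all genes 0.09. In EPSCM against 2iLIF, 17 were higher and 2 lower, against 10.1% and 5.91% of all genes, with medians of 1.31 and 0.03. In 2iLIF against ES, 2 were higher and 6 lower, against 7.62% and 7.12% of all genes, with medians of -0.33 and 0.03. The comparisons share libraries. Because the members were proposed from these media, and several passed the filter only through EPSCM, nothing is read from these shares.

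By role, 5 of 5 tested class II genes were higher in EPSCM against each other medium. Among these, H2-Oa and H2-DMb1 passed the filter only through EPSCM, and the lower class II genes, H2-Aa among them, were not tested. Of 11 tested class I genes, 5 were higher and 1 lower against ES, and 8 were higher and 1 lower against 2iLIF. H2-Bl, listed as a transcribed pseudogene, is among the higher ones in both, and H2-K2, listed likewise, among those higher against 2iLIF. Of the tested class I genes, H2-Q2, H2-Q7, H2-K2 and H2-M3 passed the filter only with EPSCM. H2-Q2 and H2-Q7 are among the higher ones in both comparisons. Of 8 tested processing genes, 1 was higher (B2m) and 1 lower (Psmb10) against ES, and 3 were higher (Psmb9, Tap1 and Tap2) and 1 lower (Psme2) against 2iLIF. Tap2 too passed the filter only through EPSCM. Between 2iLIF and ES, 3 class I genes were lower and none higher, no class II gene was called, and among processing genes 2 were higher (B2m and Tapbp) and 3 lower (Psmb9, Psmb10 and Tap1). H2-D1, H2-Q10, H2-Ke6 and H2-K2 lay just short of the limit against ES, at 0.92 to 0.97, and H2-Q4 just past it at 1.02. A pseudocount of 0.1 FPKM in place of 1, which gives more weight to low values, changed the calls between 2iLIF and ES most. Class II genes were then called there in both directions, H2-Ab1 at -2.35 and H2-DMa at -1.61 lower and H2-Eb1 at 1.08 higher, as were Cd74 at -1.34 and the class I genes H2-Q7 at -2.23, H2-Q10 at -2.07 and H2-Bl at 1.14, beside H2-M3 and Tap2. The same setting added H2-D1, H2-K2, H2-Ke6, H2-Q10 and Tap2 to the members higher in EPSCM against ES, at 1.01 to 1.48. With only the 6 close libraries, 13 members were higher and 2 lower in EPSCM against ES, 17 and 2 against 2iLIF, and 2 and 5 in 2iLIF against ES.

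**Figure D4:**
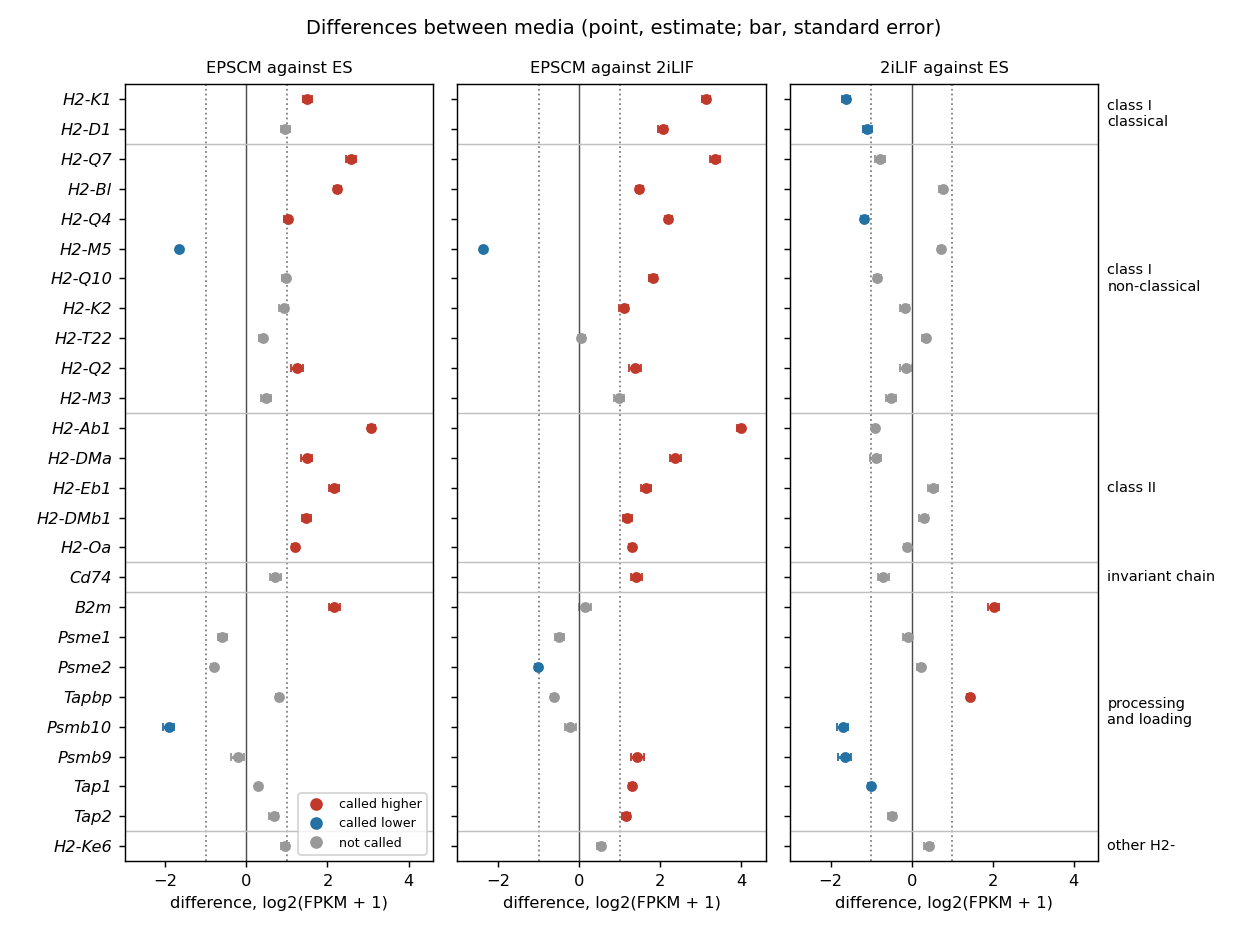
Differences on the log2(FPKM + 1) scale between media for the 26 tested members (points, estimate; bars, standard error; dotted lines, the limit of 1 in size; colour, the call). Class II genes lie right of the limit in both EPSCM comparisons, and H2-M5 lies left of it.

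Genes of the same block that are not members were read beside them. Of the 57 members, 54 were matched in RefSeq and 46 of these lie on chromosome 17. Of 85 tested genes inside the MHC block that are not members, 5.88% were higher and 15.3% lower in EPSCM against ES, with a median of -0.29. Against 2iLIF 7.06% were higher and 9.41% lower, with a median of -0.10.

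Genes that feed the pathway were taken from lists. For comparison, 11.7% of all tested genes were higher and 7.97% lower in EPSCM against ES. The shares were 10.1% and 5.91% in EPSCM against 2iLIF, and 7.62% and 7.12% in 2iLIF against ES. Of 9 tested helpers of peptide loading, 2 were higher in EPSCM against ES and none lower. Calr, the chaperone calreticulin, was at 665, 663 and 665 FPKM in EPSCM, 332, 333 and 323 FPKM in 2iLIF and 279, 286 and 275 FPKM in ES, higher in EPSCM by 1.24 against ES and 1.01 against 2iLIF. Erp44, a thiol oxidoreductase, was higher against ES by 1.10. Canx, the chaperone calnexin, differed in EPSCM by 0.91 against ES and 0.57 against 2iLIF, and Pdia3, the disulfide isomerase of the loading complex, by 0.20 against either medium, none of them called. Of 7 constitutive proteasome and activator genes none was called in any comparison. Among them Psmb5 differed by -0.98, Psmb6 by -0.55 and Psmb7 by -0.56 in EPSCM against ES. For Lnpep, of 7 peptidases, the difference was 1.09 against ES, and for Lap3 -1.11 against 2iLIF. No other peptidase was called in either EPSCM comparison.

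Of 9 tested genes of the class II compartment, 5 were higher in EPSCM against ES and 4 in 2iLIF against ES. The shares over all tested genes were 11.7% and 7.62%. Ifi30, a lysosomal thiol reductase that unfolds antigens, was at 160, 190 and 163 FPKM in EPSCM, 39.0, 33.7 and 34.7 FPKM in 2iLIF and 38.3, 31.6 and 36.0 FPKM in ES. It was higher in EPSCM by 2.24 against ES and 2.22 against 2iLIF. Ctsb, Ctsl and Lamp2, lysosomal genes with general roles, were higher in 2iLIF than in ES by 1.11, 1.73 and 2.53. They were also higher in EPSCM than in ES, by 1.76, 1.66 and 1.95, and were not called in EPSCM against 2iLIF. Ctss, the protease that trims the invariant chain in antigen presenting cells, did not exceed 0.0431 FPKM. The costimulatory Cd80 was lower in EPSCM than in 2iLIF, at -1.24. Among 8 tested class I like genes outside the complex, Raet1a, a stress ligand of natural killer cells, was lower against ES in EPSCM (-1.87) and in 2iLIF (-1.98), and its family holds near copies that may share reads. Raet1e was higher in EPSCM than in 2iLIF by 1.14 and lower in 2iLIF than in ES, at -1.51. Procr was lower in 2iLIF than in ES, at -1.28.

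Factors that act on these promoters were taken from a list too. Their median difference in EPSCM was -0.17 against ES and -0.30 against 2iLIF. Of 13 tested promoter factors none was higher in EPSCM, 1 was lower against ES (Nfkb1 at -1.57) and 2 against 2iLIF (Relb at -1.92 and Nfyc at -1.17). Of all tested genes, 11.7% were higher and 7.97% lower in EPSCM against ES, and 10.1% and 5.91% against 2iLIF. Nothing is read from counts this small. Rfx5, a subunit of the X box factor, was at 7.79, 8.38 and 7.88 FPKM in EPSCM, 7.55, 7.40 and 7.06 FPKM in 2iLIF and 3.61, 3.61 and 3.41 FPKM in ES. It differed by 0.99 in EPSCM against ES, just short of the limit, and by 0.11 against 2iLIF. Of 12 tested genes from the interferon receptors to the IRF factors, 2 were higher in EPSCM against ES, Stat2 at 1.91 and Jak2 at 1.23. Against 2iLIF, Stat2 at 1.08 and Ifngr1 at 1.07 were higher and Irf9 at -1.44 was lower. Irf1, a factor known to be induced by interferon gamma, was at 13.2, 15.9 and 12.1 FPKM in EPSCM, 24.3, 20.2 and 20.2 FPKM in 2iLIF and 23.4, 19.4 and 19.2 FPKM in ES. EPSCM was lowest, without overlap, and Irf1 was not called.

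Markers of other cells were read beside the class II genes. Of 14 immune cell markers 3 averaged at least 1 FPKM in each medium, and the list summed to 53.6 to 61.3 FPKM in EPSCM, 104 to 110 FPKM in 2iLIF and 103 to 116 FPKM in ES. Laptm5, a lysosomal membrane gene, held most of that sum and was lower in EPSCM, at -1.35 against ES and -1.40 against 2iLIF. Tyrobp and Adgre1 were listed at 0 in every library, and Ptprc, the marker of all white blood cells, in every library but 1, at 0.00972 FPKM in ES. Itgam, an integrin chain of myeloid cells, was higher in every EPSCM library than elsewhere, at 0.482, 0.503 and 0.427 FPKM in EPSCM, 0.150, 0.202 and 0.184 FPKM in 2iLIF and 0.159, 0.104 and 0.182 FPKM in ES. Cd14, a monocyte marker, was at 0.206, 0.791 and 0.312 FPKM in EPSCM, 0.244, 0.0518 and 0.0897 FPKM in 2iLIF and 0.2002, 0.115 and 0.139 FPKM in ES, and EPSCM overlapped 2iLIF. Both were too low to be tested. Fibroblast markers summed to 10.9 to 13.8 FPKM in EPSCM, 3.77 to 4.18 FPKM in 2iLIF and 15.0 to 17.7 FPKM in ES, and 2 of 10 averaged at least 1 FPKM in EPSCM, 1 in 2iLIF and 2 in ES. The tested ones went opposite ways against ES. Thy1 was higher in EPSCM than in 2iLIF by 2.31 and lower than in ES, at -1.13. Pdgfrb was higher in EPSCM than in ES by 1.56 and was not called against 2iLIF, at 0.65. Primitive endoderm markers summed to 11.5 to 12.9 FPKM in EPSCM, 3.21 to 3.54 FPKM in 2iLIF and 7.46 to 8.05 FPKM in ES, and 5 of 9 reached that mean in EPSCM, 1 in 2iLIF and 3 in ES. In EPSCM against ES, Gata6 at 1.32 and Gata4 at 1.21 were called higher and Sox7 at -1.88 lower. Against 2iLIF, Gata6 at 1.73 and Amn at 1.36 were called higher and none lower. The part of endoderm-marked cells in the member levels was not tested. In bulk RNA, more cells of a kind and more RNA per cell cannot be told apart.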

How the data were processed

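RNA of E14 mouse embryonic stem cells in EPSCM, 2iLIF and ES medium (3 libraries each) was made into stranded libraries from selected messenger RNA, per the labels' protocols. The deposited values are FPKM per gene and library; the authors used STAR, Cuffnorm and the mm9 build, per the submitters' processing notes. The sources used here give no versions, annotation, use of strand or scaling between libraries. FPKM is relative to library total and transcript length, so abundant genes can move the rest, and copies of a gene can share fragments. Every sample column was used.

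The members, their classes and the lists were chosen with earlier results of these data known. Every member averaging 1 FPKM or more in a medium is named. From each list up to 3 called genes per comparison with the largest differences, averaging 1 FPKM or more in the higher medium, could be named, with Irf1, Rfx5, Psmb5, Psmb6, Psmb7, Calr, Canx and Pdia3 whatever their values; 1 gene that the rule takes is not reported here. Values were taken as log2(FPKM + 1), which understates the change of low genes. A gene was tested if 3 or more of the 9 libraries reached 1 FPKM, which kept 12330 of 24819, in 1 limma fit over all libraries (limma 3.58.1, R 4.3.3, trend in the variance prior), with Benjamini-Hochberg adjustment over all tested genes. The fit was tested on simulated data. A call needs an adjusted p under 0.05 and a difference of at least 1 in size.

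RefSeq and GENCODE M21, both GRCm38, gave names, gene order, overlaps, shared stretches and promoter windows. No coordinate was taken from mm9. The letters of the interferon element and the NF-kappaB site were respelled after the counts of the first spelling were seen, so both are given. When libraries were left out, the 12330 genes of the full fit were kept, a choice made after a first run had dropped genes present only in EPSCM. The fragment step is one of several rough estimates tried and enters no test.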

Additional observations from a re-analysis of the deposited data

How the results depend on the processing

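Over the 26 tested members, 461 of 479 differences under alternatives kept their call status in EPSCM against ES. The same held for 468 of 479 in EPSCM against 2iLIF and 464 of 479 in 2iLIF against ES. No difference that was called in the main fit or in the alternative changed sign. Changes of sign among differences called in neither were not counted. With class I entered as 1 sum there are fewer genes to count: 6 higher and 1 lower in EPSCM against ES, 9 and 1 against 2iLIF, and 3 lower in 2iLIF against ES. A pseudocount of 0.1 gave 4 higher and 13 lower in 2iLIF against ES, with class II genes in both directions; the cause was not tested. Leaving out 1 library gave 10 to 15 higher and 2 lower in EPSCM against ES, 17 to 18 higher and 1 to 2 lower against 2iLIF, and 2 higher and 4 to 6 lower in 2iLIF against ES. The class I sums then were 114.5 to 124.8 FPKM in EPSCM, 59.2 to 62.3 FPKM in 2iLIF and 62.0 to 67.3 FPKM in ES, and the class II sums 34.0 to 38.3 FPKM in EPSCM, 2.97 to 3.52 FPKM in 2iLIF and 4.38 to 4.96 FPKM in ES. Of all genes called in EPSCM against 2iLIF, 63.2% were higher as deposited and 52.8% after quantile normalization. The median of all genes in EPSCM against ES was 0.09 as deposited and -0.01 after median of ratios scaling. The second spelling of the interferon element, chosen after the first count was seen, gave 33.3% of member windows in place of 11.1%. No paired analysis was possible because the titles of different media share no replicate number. A covariate for the libraries that stood apart, chosen after seeing the data, or for library numbers of at least 10, left all member counts as they were: 11 higher and 2 lower in EPSCM against ES, 17 and 2 against 2iLIF, and 2 and 6 in 2iLIF against ES. Values near 0.1 FPKM are limited by depth.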

Other observations

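The class II set in EPSCM was uneven in its chains. H2-Ab1 averaged 17.1 FPKM in EPSCM, while its alpha partner H2-Aa averaged 0.575 FPKM there, and H2-Eb1 averaged 5.90 FPKM with its alpha gene listed at 0. H2-Oa averaged 1.82 FPKM with its partner H2-Ob listed at 0. The I-E alpha gene and H2-Ob were at 0 in every library of every medium, so their absence is not particular to EPSCM. H2-DMa over H2-DMb1 was 1.80 ± 0.414 in EPSCM, 0.482 ± 0.149 in 2iLIF and 2.49 ± 0.724 in ES (SD, n = 3 each). Tap1 over Tap2 was 1.77 ± 0.346 in EPSCM, 3.94 ± 0.869 in 2iLIF and 3.38 ± 0.160 in ES (SD, n = 3 each). Psme1 over Psme2 was 1.74 ± 0.0887 in EPSCM, 1.20 ± 0.119 in 2iLIF and 1.49 ± 0.0502 in ES (SD, n = 3 each).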
